A study of Mus musculus with 2 samples.

Results

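Mir219a-1, Mir219a-2 and Mir338 are the mouse genes of the oligodendrocyte microRNAs miR-219 and miR-338, and Mir219b and Mir3065 are annotated on the other strand of Mir219a-2 and Mir338. These 5 genes were taken by name from the 2202 microRNA (miRNA) genes with deposited counts, and all 5 were found. Small RNA had been sequenced in 2 libraries labelled layer of hippocampus, called replicate 1 and replicate 2. Both came from male mice, with no treatment named, of the B6CASTF1/J strain, the first-generation hybrid of C57BL/6J and CAST/EiJ, at 25 days of age. The libraries have separate biosamples but 1 donor entry, so the spread between them may be partly technical. With 1 group, the comparisons that can be made are between genes, between the strands of a locus and between the libraries.

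Oligodendrocytes wrap axons in myelin, and in rodents much of this wrapping takes place in the first weeks after birth. A miRNA is a short single strand that comes from the 5′ arm (5p) or 3′ arm (3p) of a hairpin precursor. It represses messenger RNAs that pair with its seed, bases 2 to 8. In mice, miR-219 and miR-338 are induced as oligodendrocyte precursors mature, and they repress regulators that hold precursors in the dividing state, such as Sox6 and Hes5. The same stretch of DNA can also be read from the other strand, where it gives a different hairpin with different seeds. Mir219b and Mir3065 are annotated as such genes.

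Which sequences tell these genes apart? The RefSeq table (GRCm38.p6) matched all 5 genes and gave 8 mature entries, which are 7 distinct sequences with 7 distinct seeds. The mature sequence of the 3p arm of Mir219a-2, miR-219a-2-3p, was not among these entries. It is therefore missing from the list below and from the search of precursors. For Mir3065 the entries gave a 5p arm only, so any 3p arm is missing in the same way. The sequences are shown because the counts below depend on which of them are shared between loci. Capitals mark the seed.
miR-219a-5p: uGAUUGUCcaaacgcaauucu
miR-219a-1-3p: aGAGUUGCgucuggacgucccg
miR-219b-5p: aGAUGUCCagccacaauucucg
miR-219b-3p: aGAAUUGCguuuggacaaucagu
miR-338-5p: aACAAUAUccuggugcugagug
miR-338-3p: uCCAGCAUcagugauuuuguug
miR-3065-5p: uCAACAAAaucacugaugcugg
No other mature miRNA of the table has any of these 7 seeds. Each of the other 6 sequences lay in 1 of 2202 GENCODE M21 precursors, whereas miR-219a-5p lay in 2, those of Mir219a-1 and Mir219a-2.

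Mir219a-2 (ENSMUSG00000065485.1) lies on the minus strand of chromosome 2 at chr2:29845631-29845727 of mm10. It overlaps no annotated protein-coding gene, and the nearest is Urm1, a gene of tRNA modification, 628 bases away on the other strand. Mir219a-1 (ENSMUSG00000065555.1) is on the minus strand of chromosome 17 at chr17:34024983-34025092, 302 bases from the polycomb gene Ring1. Of its 110 bases, 88 lie within the bounds of the noncoding gene Gm26940, and it overlaps an exon of that gene. The hairpins of the 2 genes are shown with their longest shared stretch, of 22 bases, in capitals.
Mir219a-2: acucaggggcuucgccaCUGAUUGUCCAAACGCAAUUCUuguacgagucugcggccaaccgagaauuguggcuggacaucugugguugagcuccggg
Mir219a-1: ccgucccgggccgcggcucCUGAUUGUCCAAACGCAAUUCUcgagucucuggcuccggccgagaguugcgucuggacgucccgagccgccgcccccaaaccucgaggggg
The stretch holds the whole 5p arm, so a read made of those 21 bases alone matches both loci. The 3p sides differ. The mature miR-219a-1-3p matched its closest window of the Mir219a-2 hairpin, found without gaps, at 15 of 22 bases. The 2 are aligned here with the differing bases in capitals.
Mir219a-2 window: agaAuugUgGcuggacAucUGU
miR-219a-1-3p: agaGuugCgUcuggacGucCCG

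Mir338 (ENSMUSG00000065600.1) lies on the minus strand of chromosome 11 at chr11:120014765-120014862, inside an intron of the kinase gene Aatk and on the same strand as it. Mir3065 (ENSMUSG00000105524.1), at chr11:120014767-120014853 on the plus strand, lies with all of its 87 bases inside Mir338. Mir219b (ENSMUSG00000105010.1), at chr2:29845647-29845711 on the plus strand, lies with all of its 65 bases inside Mir219a-2. Some arms face each other. Of the 22 bases of miR-338-3p, 21 pair with miR-3065-5p, and all 21 bases of miR-219a-5p pair with miR-219b-3p. The hairpin of Mir338, with its arms in capitals, shows the region that Mir3065 reads backwards.
Mir338: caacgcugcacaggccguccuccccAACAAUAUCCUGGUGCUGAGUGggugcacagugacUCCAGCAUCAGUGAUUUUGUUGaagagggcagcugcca

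**Figure D1:**
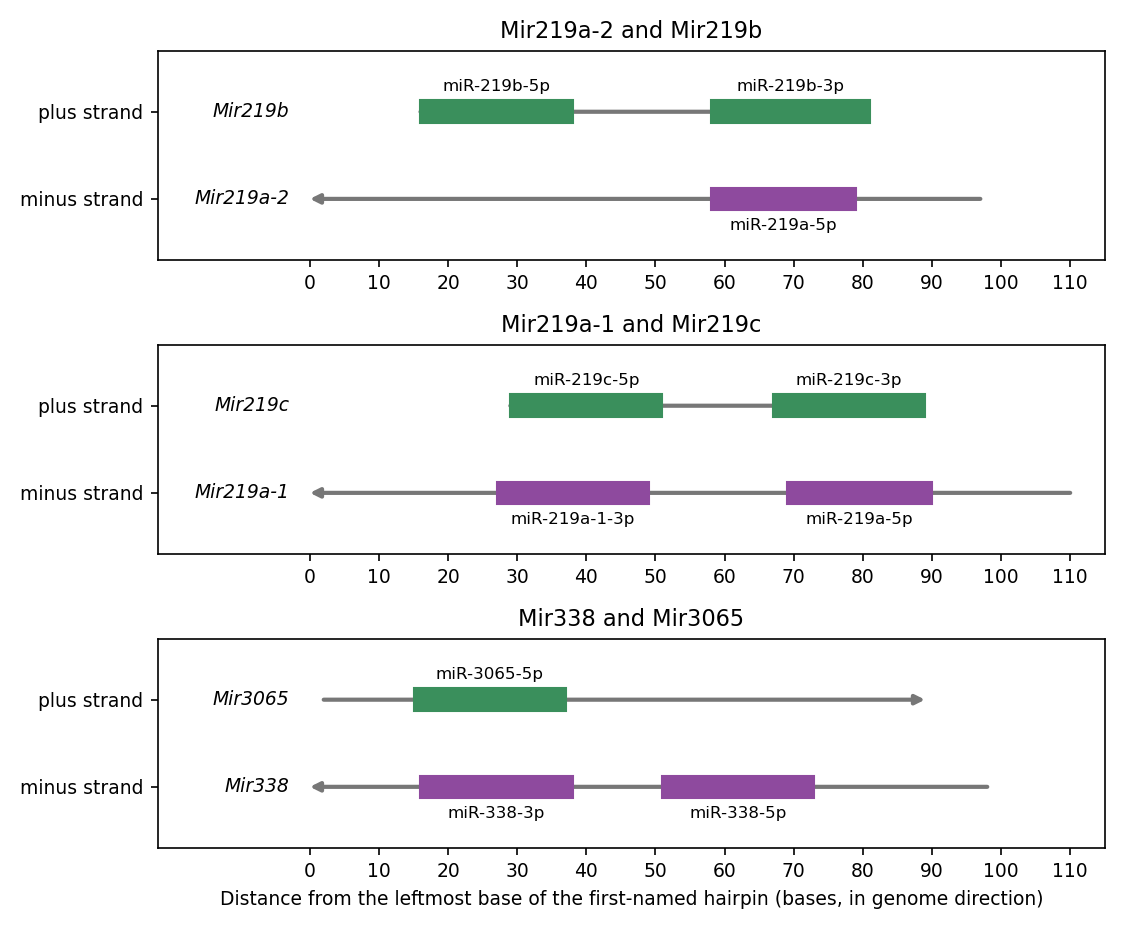
Maps of the 3 loci, with the distance in bases from the leftmost base of the first-named hairpin on the x axis and the strand on the y axis. Grey arrows are hairpins and coloured boxes are the mature arms annotated by RefSeq. Mir219b lies with all of its 65 bases inside Mir219a-2 and Mir3065 with all of its 87 inside Mir338. miR-219a-5p faces miR-219b-3p and miR-338-3p faces miR-3065-5p, while miR-219b-5p and miR-338-5p face no arm drawn here.

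How strongly was each gene expressed? Own-strand reads of all miRNA genes numbered 5183641 in replicate 1 and 5871233 in replicate 2, and levels are given as counts per 1000000 of these reads (CPM). Intervals are exact binomial intervals at 95% and, like the limits set for a count of 0, cover counting error only, since no molecular identifiers are mentioned. Mir219a-2 had 19445 counts in replicate 1 and 27647 in replicate 2, which is 3751 CPM (interval 3699 to 3804) and 4709 CPM (4654 to 4765). Its mean was 4230 ± 677 CPM (SD, n = 2), rank 44 of 2202 genes. Mir338 had 7761 and 11496 counts, which is 1497 CPM (1464 to 1531) in replicate 1 and 1958 CPM (1922 to 1994) in replicate 2, with a mean of 1728 ± 326 CPM (SD, n = 2) and rank 78. Both stood high in both libraries, at 82.6 and 33.8 times the median level of 51.2 CPM among detected genes. Levels here are per gene and the files do not divide them by arm.

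The other 3 genes stood near 0. Mir219a-1 had 9 counts in replicate 1 and 56 in replicate 2, or 1.74 CPM (interval 0.794 to 3.30) and 9.54 CPM (7.20 to 12.4), and its rank was 357. Mir3065 had 0 counts in replicate 1, which allows a level of up to 0.579 CPM, and 2 counts in replicate 2, or 0.341 CPM (0.0413 to 1.23). Mir219b had 0 counts in both libraries, which allows up to 0.579 CPM in replicate 1 and 0.511 CPM in replicate 2. The order of the 2 leading genes, Mir219a-2 above Mir338, held in both libraries with intervals that did not overlap. Mir219b and Mir3065 were not distinguishable at this depth. In all, 2 of the 5 genes were detected, meaning at least 10 counts in both libraries, against 20.2% of all genes. Mir219a-1 missed that minimum by 1 count in replicate 1.

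**Figure D2:**
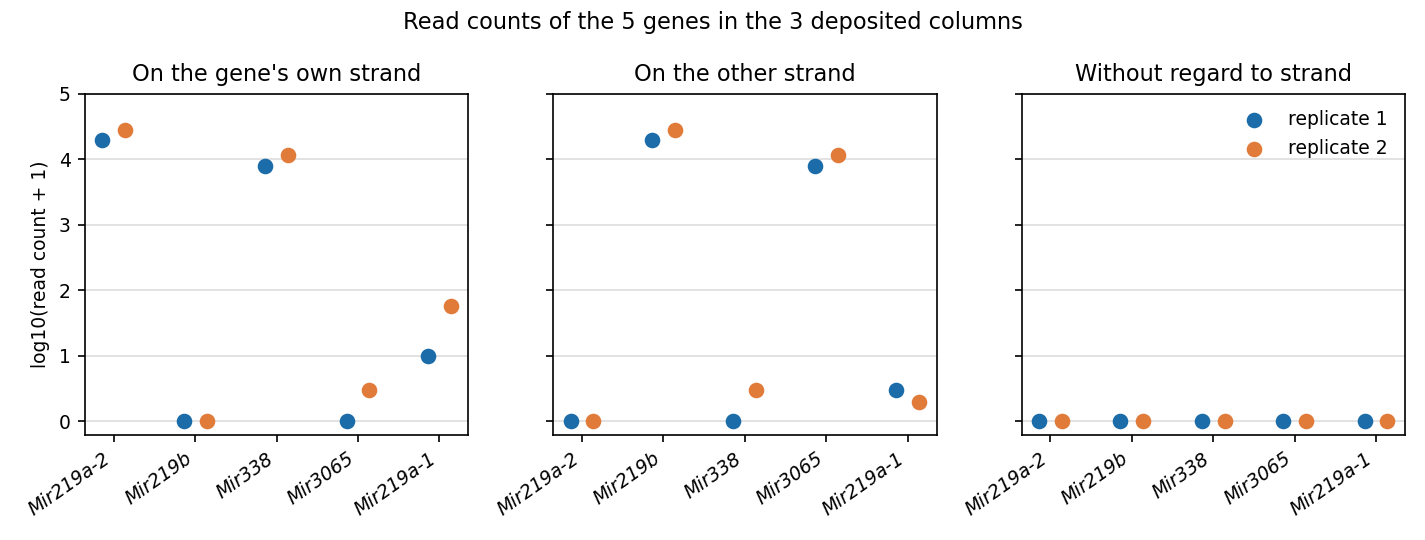
Read counts of the 5 genes, as log10(count + 1) on the y axis, in the 3 deposited columns. Each point is 1 library. On their own strand Mir219a-2 and Mir338 lie between 7761 and 27647 counts, on the other strand Mir219b and Mir3065 repeat those values, and without regard to strand all 5 genes are at 0.

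Together the 5 genes took 0.525% of the gene-assigned counts in replicate 1 and 0.668% in replicate 2 (0.596% ± 0.101, SD, n = 2). Nearly all of it was Mir219a-2 and Mir338, and their proportion was close to constant. Mir219a-2 had 2.51 counts for each count of Mir338 in replicate 1 (interval 2.44 to 2.57) and 2.40 in replicate 2 (2.35 to 2.46). This ratio does not depend on how the libraries are scaled, and on the log2 scale it was 1.30 ± 0.04 (SD, n = 2). It leaves out any read of miR-219a-5p that matched both miR-219a loci, so the Mir219a-2 side may be incomplete.

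Reads aligned to several places are held apart from the gene counts. They were 6059074 reads, or 43.6% of all reads, in replicate 1 and 6908203 reads, or 43.2%, in replicate 2. How many of them were miR-219a-5p was not analysed here, so the levels of Mir219a-1 and Mir219a-2 leave out any read that matched both loci. The miR-338 arms each occur in 1 of the 2202 precursors searched. Places outside annotated precursors were not searched, so reads of Mir338 may also stand among those aligned to several places.

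Did both strands of a locus give reads? On chromosome 2 every read assigned to either gene lay on the strand of Mir219a-2, which was at least 6482-fold higher than Mir219b in replicate 1 and 9216-fold higher in replicate 2, taking 3 counts per library as the floor for a count of 0. With no count, the Mir219b share of the locus could be up to 0.0154% in replicate 1 and 0.0109% in replicate 2. Mir338 was at least 2587-fold higher than Mir3065 in replicate 1, and in replicate 2 the Mir3065 share of the locus was 0.0174% (interval 0.00211 to 0.0628). On chromosome 17 Mir219a-1 faces Mir219c, a gene of the same kind that is not among the 5. Mir219c had 2 counts beside the 9 of Mir219a-1 in replicate 1 and 1 beside 56 in replicate 2, which is 18.2% (2.28 to 51.8) and 1.75% (0.0444 to 9.39) of that locus.

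The deposited columns repeat the same reads. In the column for the other strand, Mir219b was listed with 19445 counts in replicate 1 and 27647 in replicate 2, the own-strand counts of Mir219a-2, and Mir3065 with 7761 and 11496, those of Mir338. The column without regard to strand listed all 5 genes at 0 in both libraries. The 27217 reads of the 3 loci in replicate 1 and 39202 in replicate 2 were missing there, equal to 8.99% and 10.1% of the reads that this column holds as ambiguous. In that column neither the miR-219 nor the miR-338 genes had any read.

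Other miRNA genes are arranged in the same way. Of 2202 genes, 32 pairs overlap on opposite strands, and 26 pairs had a summed mean of at least 10 counts. In 20 of these 26 (76.9%) the smaller partner had no count in either library. Mir219a-2 with Mir219b was 1 of the 20, and Mir338 with Mir3065 and Mir219a-1 with Mir219c were not. By summed mean the leading 5 pairs were Mirlet7e with Gm25927 (115221 and 161468 counts of the larger partner), Mir191 with Gm24083 (52695 and 66167), Mir126a with Mir126b (27471 and 34343), Mir219a-2 with Mir219b, and Mir378a with Gm25301 (23020 and 23192). All 5 smaller partners were at 0 in both libraries. The share of the smaller partner differed between libraries in 1 of the 26 pairs (3.85%) in a 2-sided Fisher exact test at an adjusted p below 0.05, Mir24-1 with Mir3074-1, and in none of the 3 pairs with a miR-219 or miR-338 gene (adjusted p of 1, 1 and 0.571, and 0 of 3 at an unadjusted p below 0.05). The 20 pairs with no count of the smaller partner, Mir219a-2 with Mir219b among them, could not differ in this test. With so few counts on the smaller side, the result does not show that the shares were alike.

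**Figure D3:**
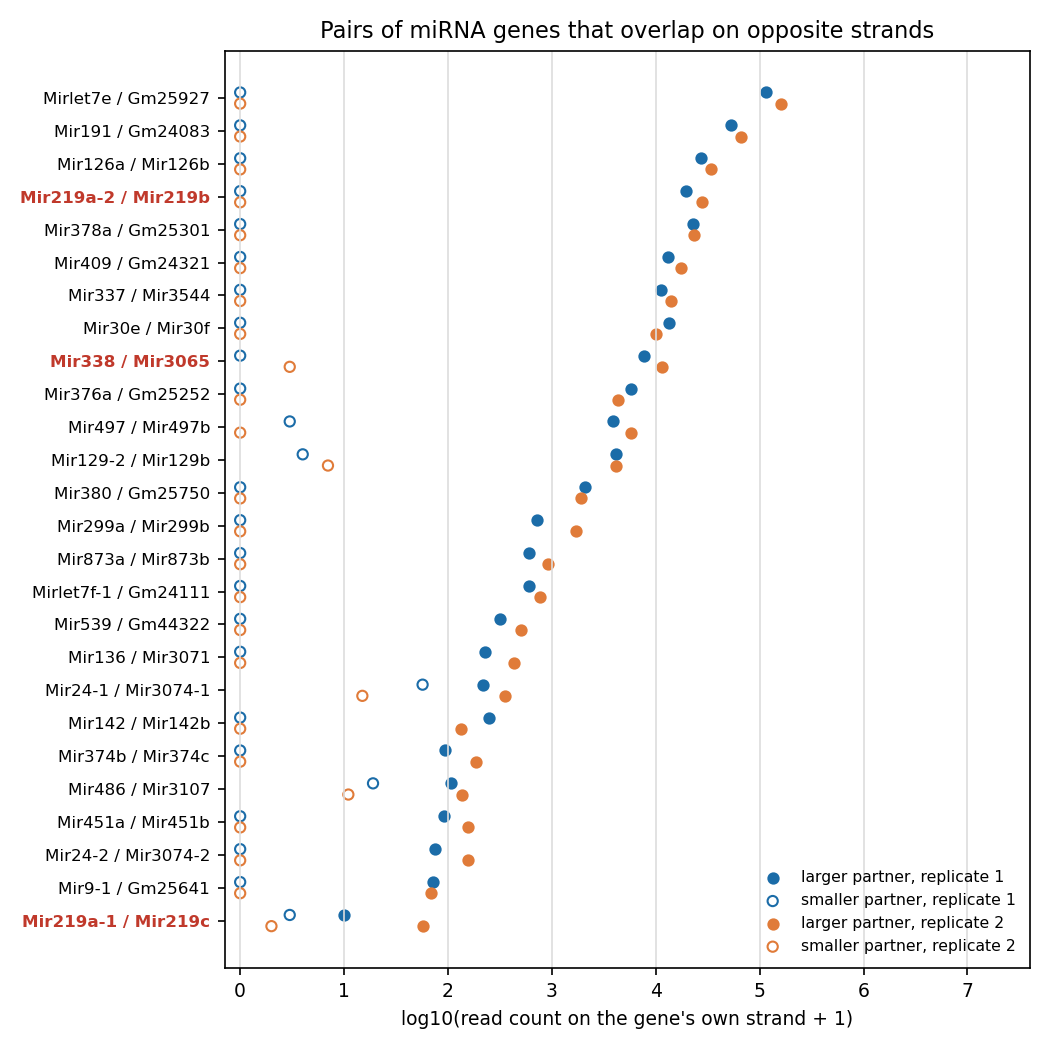
Counts of the 26 pairs of miRNA genes on opposite strands, as log10(count + 1) on the x axis, ordered by summed mean. Filled points are the larger partner, open points the smaller one, and red labels mark the pairs of Mir219a-2, Mir338 and Mir219a-1. In 20 of the 26 pairs both open points lie at 0.

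Mir219a-1 and Mir219a-2 encode 1 mature 5p miRNA at 2 loci, yet their counts were far apart. Mir219a-2 had 2161 counts for each count of Mir219a-1 in replicate 1 (interval 1138 to 4726) and 494 in replicate 2 (380 to 654), a mean log2 ratio of 9.92 ± 1.42 with 1 count added to both (SD, n = 2). The same ratio was taken for 4 miRNAs of neurons that also have a pair of loci with 1 shared mature sequence. Mir128-1 exceeded Mir128-2 by 3.99-fold in replicate 1 and 4.14-fold in replicate 2. Mir129-2 exceeded Mir129-1 by 3.40-fold and 4.43-fold, Mir138-1 exceeded Mir138-2 by 2.14-fold and 2.42-fold, and Mir218-2 exceeded Mir218-1 by 10.8-fold and 6.54-fold. The miR-219a ratio was above these 8 values in both libraries, with intervals that did not overlap theirs. The longest stretch shared by the hairpins was 22 bases for miR-219a and 22 to 26 bases for the other 4. These ratios count only reads assigned to 1 locus, and with the shared arm left out they need not equal the ratio of the transcripts.

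**Figure D4:**
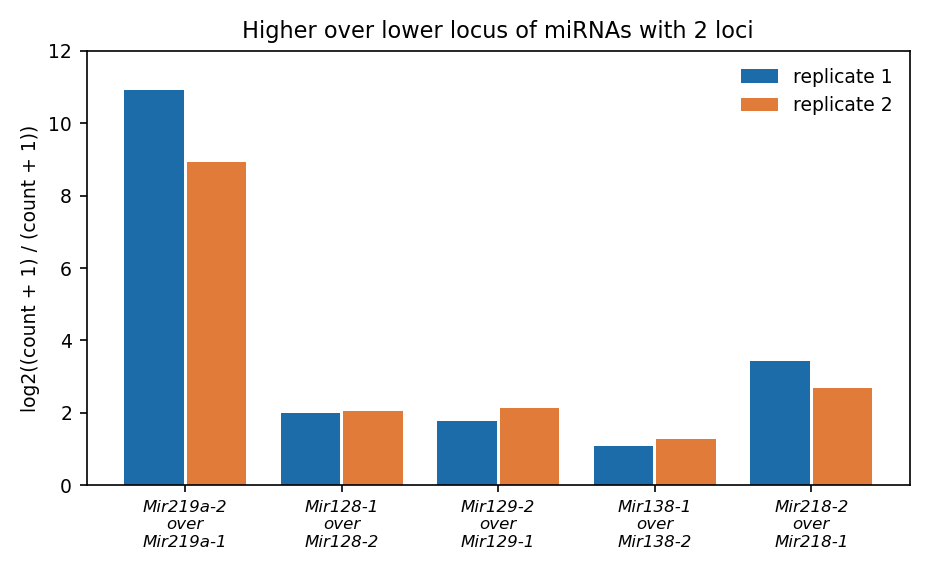
Log2 ratio of the higher over the lower locus, with 1 count added to both, for miR-219a and 4 neuronal miRNAs with a pair of loci. Bars are single libraries. The miR-219a bars stand at 10.9 and 8.92, above the other bars at 1.10 to 3.42.

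Did the genes differ between the 2 libraries? Counts were compared by an exact binomial test (2-sided), with each library's total setting the expected share, adjusted by Benjamini-Hochberg over 472 genes with a mean of at least 10 counts. This test compares 2 libraries and leaves out the spread between samples. Of these genes 59.7% differed, 20.3% being higher and 39.4% lower in replicate 1. All 3 of the genes with enough counts were lower in replicate 1. Mir219a-2 had a log2 ratio of replicate 1 over replicate 2, with 1 CPM added, of -0.33 (adjusted p = 7.86e-131, exact binomial test), and Mir338 of -0.39 (adjusted p = 9.35e-75, exact binomial test). Mir219a-1, with 9 against 56 counts, had -1.95 (adjusted p = 7.46e-08, exact binomial test). Mir219b and Mir3065 had too few counts to be tested.

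The differences of the 2 leading genes lay near the middle of those of all genes. Over 291 genes with a mean of at least 100 counts the median absolute log2 ratio was 0.34, and 156 of them had a larger one than Mir219a-2 and 131 a larger one than Mir338. The SD between libraries was 16.0% of the mean for Mir219a-2, 18.9% for Mir338 and 97.9% for Mir219a-1. edgeR estimated a common biological coefficient of variation of 32.1% over 472 genes. That estimate rests on the same 2 libraries, leaves out counting error and uses other library sizes, so it is not the same measure. As the libraries may be partly technical repeats, it need not be biological spread. The median log2 ratio over the 291 genes was -0.17. The TMM method (trimmed mean of M-values) shifted log2 ratios by 0.14 and DESeq2 size factors by 0.18, after which Mir219a-2 stood at -0.19 and -0.15 and Mir338 at -0.25 and -0.21. Over all 472 genes, 96 were higher and 186 lower in replicate 1 as scaled to the totals, 124 and 151 under TMM, and 139 and 138 under DESeq2 size factors.

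**Figure D5:**
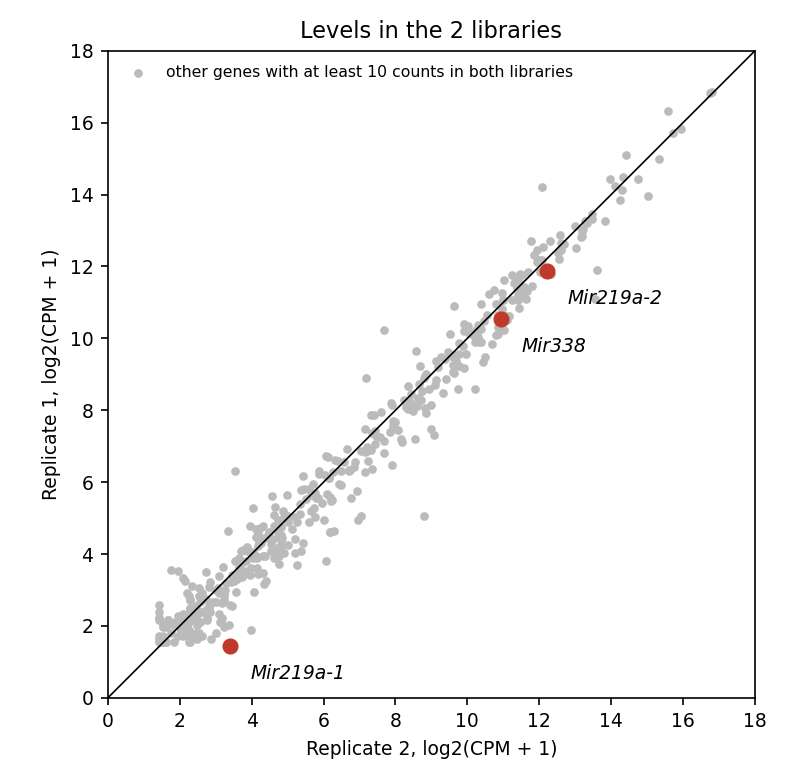
Levels of miRNA genes as log2(CPM + 1), with replicate 2 on the x axis and replicate 1 on the y axis. Grey points are other genes with at least 10 counts in both libraries, red points are Mir219a-2, Mir338 and Mir219a-1, and the line marks equal levels. All 3 red points lie below the line, that of Mir219a-1, at 1.74 and 9.54 CPM, farthest from it.

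Which genes stood at the same level? By Euclidean distance of log2(CPM + 1) over the 2 libraries, the detected genes nearest to Mir219a-2 were Mir137 (3516 CPM in replicate 1 and 5087 CPM in replicate 2, distance 0.15), Mir29a (3706 and 4172 CPM, 0.18) and Mir361 (4610 and 4306 CPM, 0.32). Nearest to Mir338 were Mir383 (1609 and 1960 CPM, distance 0.10), Mir130a (1605 and 1862 CPM, 0.12) and Mir341 (1563 and 2152 CPM, 0.15).

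Further miRNAs have been tied to the oligodendrocyte lineage, some promoting and some restraining maturation. Of 13 such genes listed, 11 were matched by symbol and 10 of them were detected. The highest were Mir125a (7303 CPM in replicate 1 and 9380 CPM in replicate 2), which has an arm that restrains maturation in rodents, Mir138-1 (6700 and 5012 CPM), induced with miR-219 and miR-338 in mouse precursors, and Mir23a (6700 and 3485 CPM), which promotes myelination by repressing lamin B1. These levels are per gene and do not give the level of the arm that acts. Of the cluster that drives precursor division, Mir17 had 1138 CPM in replicate 1 and 1049 CPM in replicate 2, and Mir19b-1 had 0 counts in both. Mir19b-1 has a second locus, Mir19b-2, and reads that matched both would be left out of its count. In the same binomial test 6 of the 10 were higher and 3 lower in replicate 1, against the 20.3% and 39.4% of all genes, and the count was 6 and 3 under TMM and DESeq2 scaling too. Their median log2 ratio was 0.12, against -0.16 over the 472 genes tested. The 3 lower were Mir125a (-0.36), Mir146 (-0.52) and Mir27a (-1.21), and Mir32, at -0.12 with an adjusted p of 0.614 in the exact binomial test, did not pass. Left out of these counts and of the median were Mir7-1 and Mir7-2, which appear to be the unmatched Mir7a-1 and Mir7a-2 under other symbols. Both were lower in replicate 1, at -0.73 for Mir7-1 and -0.37 for Mir7-2 (adjusted p = 2.59e-10 and 3.41e-07, exact binomial test). With them the list would lean less towards replicate 1. Many of these genes are also expressed outside the lineage, and Mir138-1, Mir138-2 and Mir145a stand in the neuronal or vessel lists below as well.

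Markers of other cells were set beside these levels. Neuronal marker genes (7 listed, 5 detected) took 1.78% of counts in replicate 1 and 1.48% in replicate 2, and 4 of 5 were higher in replicate 1, against 20.3% of all genes tested. The log2 ratios of these 4 were 0.04 for Mir128-1, 0.09 for Mir128-2, 0.42 for Mir138-1 and 0.60 for Mir138-2. The 3 loci of the neuronal miRNA miR-124 had few counts, with 16 in replicate 1 and 12 in replicate 2 for Mir124a-1, 2 and 9 for Mir124a-3, and 0 and 1 for Mir124a-2. Reads that matched more than 1 of these loci are left out, so the counts do not give the level of miR-124. Microglia and leukocyte genes (3 of 3 detected) took 0.124% in replicate 1 and 0.0992% in replicate 2, vessel genes (3 of 3) 0.931% and 0.879%, and red blood cell genes (2 of 2) 0.00214% and 0.00337%. In the binomial test 2 of 3 microglia and leukocyte genes and 2 of 3 vessel genes were higher in replicate 1. Lower were 1 vessel gene and 2 of 2 red blood cell genes, against 39.4% of all genes tested. Under DESeq2 size factors 3 of 3 microglia and leukocyte genes and 3 of 3 vessel genes were higher. Of the red blood cell genes, 1 of 2 was then lower. Whether the shares of these lists have a part in the differences between libraries was not tested. In bulk tissue, fewer oligodendrocytes, less miRNA per oligodendrocyte and a technical difference between the libraries cannot be told apart.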

How the data were processed

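Small RNA of 2 hippocampus libraries was analysed. Raw counts of reads for each miRNA gene were deposited by the authors on mm10 with GENCODE M21, per the text deposited with them, in 3 columns (without regard to strand, own strand, other strand). Aligner and counter were not given in the sources used here. In replicate 1 and replicate 2, 62.7% and 63.3% of reads stood in 4 rows that name no gene and were left out of totals.

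The own-strand column was used for CPM. edgeR 4.0.16 (R 4.3.3) gave TMM factors and the common dispersion, since 1 group allows no quasi-likelihood test. DESeq2 1.42.0 gave alternative size factors, and scipy 1.17.1 the exact tests. The tests recovered known changes in data simulated with counting error only. Spread between samples was not simulated, so this does not show how the tests behave with it. Symbols and coordinates came from GENCODE M21 (assembly GRCm38, which is mm10) and sequences from RefSeq on GRCm38.p6. Named were the 5 genes, their 3 nearest genes in level, the 5 leading opposite-strand pairs, loci of 4 neuronal miRNAs and lineage lists; others (Mir219c, Mir24-1) were chosen after their values were seen. Of the lineage list, Mir7a-1 and Mir7a-2 had no matching symbol. Members and lists were chosen with earlier results of these data known.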

Additional observations from a re-analysis of the deposited data

How the results depend on the processing

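With the reads aligned to several places added to the total, the summed level of the 5 genes was 2744 CPM, against 5963 ± 1009 CPM (SD, n = 2). In the column without regard to strand it was 0 CPM, with 0 genes detected. Of the other alternatives to the main results, 21 stayed within 1 SD of the value or within 1.5 times the count. For the summed level and the 2 log2 ratios, leaving out 1 of 2 libraries always stays within 1 SD. Those settings, counted in the 21, could not have moved and say nothing about stability. With 1 library left out in turn, the summed level was 5250 to 6677 CPM, detected genes 2 to 3, the log2 ratio of Mir219a-2 over Mir219a-1 8.92 to 10.9, and that of Mir219a-2 over Mir338 1.27 to 1.33, a setting chosen after seeing the data. A minimum mean of 100 counts left 2 genes to test, both still lower in replicate 1. No log2 ratio of the 3 tested genes changed sign or call under the scaling, filter or pseudocount alternatives, and the adjusted p of Mir219a-1 ran from 7.46e-08 to 7.65e-07. Without replicate 1 or replicate 2 no test between libraries exists. No paired analysis was possible because there is 1 group. Depth limits Mir219b, Mir3065 and Mir219a-1, whose levels rest on 0 to 56 counts.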
